A study of Gallus gallus with 3 samples.

Results

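Expression of 9 genes of the Hedgehog pathway was followed through the forelimb field of the chicken embryo, in every annotated cell class and at 3 stages. The genes were SHH, DISP1, PTCH1, BOC, GAS1, GLI1, GLI2, GLI3 and HHIP, taken by name for their place in the pathway. All 9 were found among the 16748 genes of the deposited matrices. The embryos were wild type and untreated, male and female tissue was pooled, and the tissue was cut from beside the somites at Hamburger-Hamilton stage 10 (HH10, embryonic day 1.5), HH14 (day 2.5) and HH18 (day 3.5). Each stage had 1 library, made with the 10x Genomics single-cell 3′ kit, so no difference between stages could be tested against replicates and no p-value is given.

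Hedgehog ligands are lipid-modified proteins that DISP1 releases from the cells that make them. The receptor PTCH1 holds the signal transducer SMO inactive until a ligand binds, BOC and GAS1 are co-receptors that help PTCH1 to bind it, and HHIP is a membrane protein that binds and sequesters ligand. Downstream, the zinc-finger factors GLI2 and GLI3 carry the response, GLI3 mainly as a repressor when ligand is absent, and GLI1, PTCH1 and HHIP are themselves activated by the pathway, so that their transcripts are commonly read as a sign of signal reception. In the limb bud, SHH from a posterior group of mesenchymal cells patterns the digits, while in the trunk the notochord, floor plate and endoderm are the known sources.

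Depth was counted in unique molecular identifiers (UMIs), the tags that mark single captured transcripts. There were 1210 cells with 11855255 UMIs at HH10, 1313 with 11267879 at HH14 and 739 with 6557527 at HH18. A level is the UMIs of a gene within a class, divided by all UMIs there and given on the counts-per-million scale (CPM). The libraries shared 1 cell barcode, between HH10 and HH14. Intervals are exact 95% intervals and cover counting error only, not differences between embryos or dissections. Classes of 20 cells or more were compared. The authors drew the classes from the same expression values, so ratios between classes are a description. A pair of sums was called measured when the gene had 30 UMIs or more in the pair together, and 2-fold was used as a size for description. Blood vessel cells, read here as a background class, held every member at 18.4 CPM or less, the highest being GLI3 with 11 UMIs at HH10. The lateral plate and limb mesenchyme, used here as the common ground between stages, joined 7 annotated classes with 599, 598 and 325 cells at HH10, HH14 and HH18. Its make-up differed between the stages: 427 and 132 cells belonged to undifferentiated clusters 7 and 1 at HH10, 215 to splanchnic lateral plate and 165 to somatopleure at HH14, and 180 to limb bud mesenchyme at HH18. A change in the share of a class and a change per cell cannot be told apart in sums over the whole mesenchyme, so values within classes are set beside them.

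**Figure D1:**
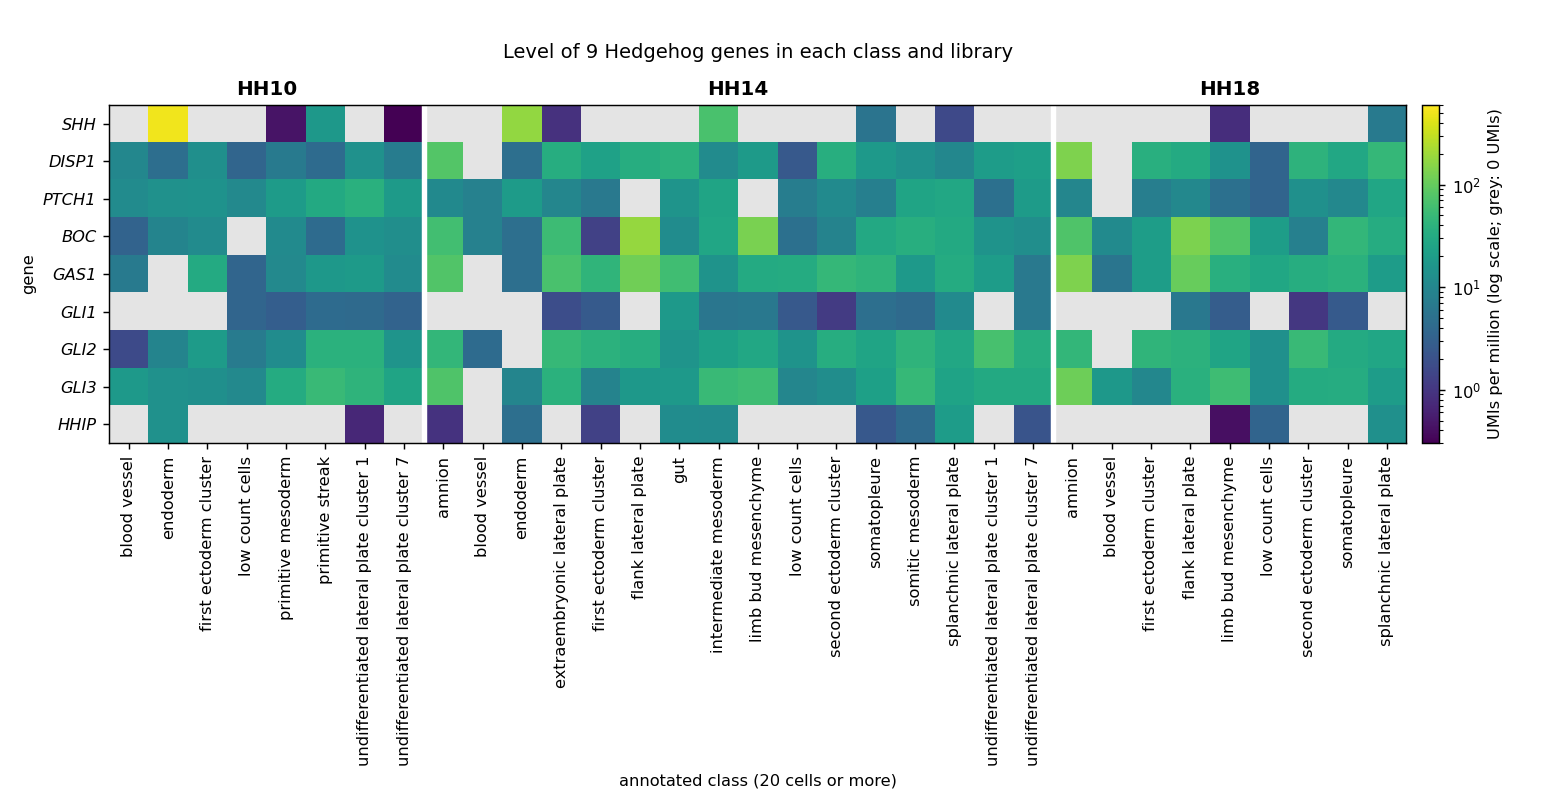
Level of each of the 9 genes (rows) in each annotated class of 20 cells or more (columns), grouped by library. Colour gives the level in CPM on a log scale and grey marks a class with 0 UMIs. SHH was counted in few classes and peaked at 513 CPM in the HH10 endoderm, while GLI2 and GLI3 were counted in nearly all classes.

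SHH, the ligand, lay mostly in the endoderm at HH10. Of 144 SHH UMIs in that library, 110 were in the 28 endoderm cells, 22 of which carried the gene, at 513 CPM (422 to 619). A further 23 were in 5 cells that had only a first-level primitive mesoderm class, and the other 11 were spread over 4 classes. The mesenchyme held 1 SHH UMI in 599 cells. The endoderm level was 2584-fold that of the mesenchyme, with an interval from 454 to 102974 that reflects the single UMI in the denominator. The endoderm class carried all 7 endoderm markers searched, among them SOX17 and FOXA2, at 2902 CPM in sum. As the classes were drawn from the same values, this describes the class and does not test its label. SHH was the 1 of 7 measured members at least 2-fold higher in this endoderm than in the mesenchyme, against 9.28% of all measured genes. By their ratios DISP1, GLI2 and GLI3 were at least 2-fold lower on 1 to 3 UMIs each, and GAS1 had 0 UMIs, against 16.4% of genes lower or at 0 by the same count. The intervals of all 4 reached past equality. For GAS1, 3 counts would give a 1.02-fold lower level, but its interval began at 0.81-fold, so it was not shown to be lower.

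At HH14 the endoderm still carried SHH, in 11 of 31 cells and with 36 UMIs, at 174 CPM (122 to 240). The HH10 level was 2.96-fold higher (2.01 to 4.43). Single cells held 25 of the HH10 and 14 of the HH14 UMIs. Without these cells the sums were 85 and 22 UMIs and the ratio 3.75-fold. With every cell thinned to 2800 UMIs, 68.0% of endoderm cells (46.5 to 85.1, n = 25) had SHH at HH10 and 24.0% (9.36 to 45.1, n = 25) at HH14. SOX17 was at 0 UMIs in the HH14 endoderm while the other 6 markers were detected, at 7182 CPM in sum, so the endoderm cells sampled at these stages also differed in their own marker genes; the part of that difference in the lower SHH level was not tested. Against the HH14 mesenchyme, SHH was 84.9-fold higher in the endoderm (42.3 to 185), the 1 member of 9 at least 2-fold higher against 8.79% of genes. On the other side, 6 members were at least 2-fold lower by their ratios or at 0 in the endoderm, against 23.4% counted in the same way. GLI2, with 0 UMIs, would be 2.37-fold lower at 3 counts, and its interval began at 1.90-fold lower. GLI1 also had 0 UMIs, but 3 counts there would exceed its mesenchyme level, so it was not shown to be lower. BOC was 9.10-fold lower (1.62 to 361) and GAS1 8.64-fold (1.53 to 343) on 1 UMI each, and the intervals of DISP1 and GLI3 reached past equality. At HH18 the endoderm class had 4 cells and 2 SHH UMIs.

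A further 46 of the 93 SHH UMIs at HH14 lay in 4 of the 67 cells of the intermediate mesoderm class, and 31 of them in a single cell. That cell carried 5 UMIs of FOXA2 and 1 of SOX2, both of which are found in the floor plate. The other 3 carried TBXT, the notochord factor brachyury, with 2, 4 and 10 UMIs, and a pair of them also carried CHRD (chordin) with 35 and 3 UMIs. In the 63 cells of the class without SHH, TBXT had 4 UMIs in all, CHRD 2 and FOXA2 5. In the somatopleure class, 6 of 7 SHH UMIs came from 1 cell, which held 2 TBXT UMIs. The HH10 somitic class had its 4 SHH UMIs in 1 cell with 11 UMIs of TBXT, 9 of NOTO and 56 of CHRD. That cell also held 8 UMIs of TCF15, a somite marker, and 14 of the endoderm markers, FOXA1 and EPCAM among them. None of the 5 HH14 cells had a UMI of NOTO, and none of the cells with TBXT had one of FOXA2. TBXT, at 2 UMIs, was the only notochord marker besides SHH in the somatopleure cell and in 1 of the intermediate mesoderm cells. SHH in these classes rested on few cells, and a class average such as the 68.3 CPM of the intermediate mesoderm at HH14 does not describe its typical cell. The 3 SHH UMIs of the splanchnic lateral plate lay in 2 cells without TBXT, CHRD or FOXA2.

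The limb bud mesenchyme at HH18 held 2 SHH UMIs in 180 cells, 1.11% of them (0.135 to 3.96), at 0.82 CPM (0.10 to 2.95). The 2 cells were among the deepest, with 33405 and 43562 UMIs against a class median of 10314. Of genes known from the posterior limb bud, HAND2 was abundant with 860 UMIs and TBX2 had 209, whereas HOXD11 had 2, GREM1 5, and HOXD12 and HOXD13 had a UMI in 0 of 180 cells, which allows a share of up to 1.67% of cells with a UMI at this depth. A UMI of SHH was thus found in very few limb bud cells of this library. HAND2, TBX2, ALX4, HOXD11, HOXD12 and HOXD13 summed to 440 CPM in the HH18 limb bud mesenchyme. At HH18 that sum was higher in amnion (1084), flank (635) and splanchnic lateral plate (572). It was lower in somatopleure (317), low count cells (203), second and first ectoderm clusters (52.8 and 28.1) and blood vessel cells (5.73). A high sum was not particular to the limb bud, and whether posterior limb bud cells were sampled was not tested.

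**Figure D2:**
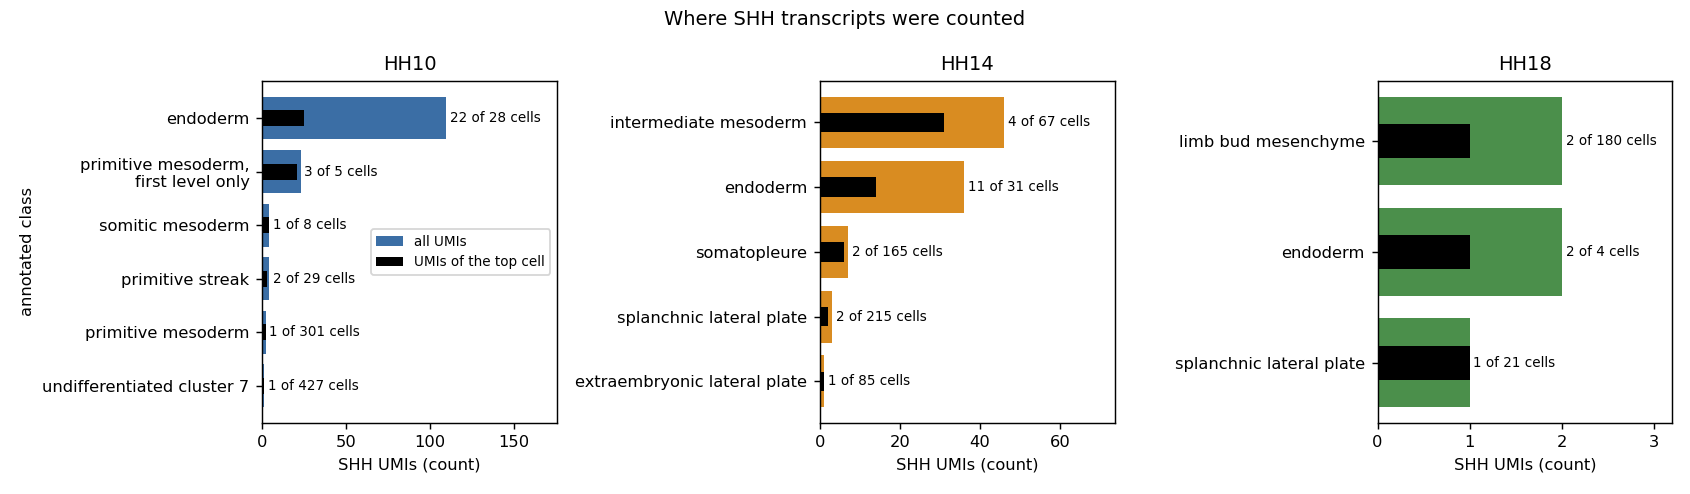
SHH UMIs counted in each annotated class (y axis) in the 3 libraries, for classes with 1 UMI or more. Coloured bars give all UMIs, black bars those of the cell with the most, and the text gives the cells with SHH. Endoderm holds 110 of 144 UMIs at HH10, 4 cells of the intermediate mesoderm class hold 46 of 93 at HH14, and 5 UMIs are left at HH18.

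DISP1, which lets ligand-making cells export Hedgehog protein, was low in the mesenchyme at HH10 and highest in the amnion. Its mesenchyme sums of 49, 105 and 70 UMIs, in stage order, stand for 9.73 (7.20 to 12.9), 19.5 (16.0 to 23.6) and 19.7 CPM (15.4 to 24.9), so HH10 was low and the later libraries were level. The HH14 to HH10 ratio of 2.01 sat at the 2-fold line and was below it with median-of-ratios scaling, at 0.96 on the log2 scale. The endoderm, where SHH was highest, had 1 DISP1 UMI at HH10, or 4.67 CPM (0.12 to 25.99), and 1 at HH14, or 4.82 CPM (0.12 to 26.9), and both intervals take in the mesenchyme level. The highest class was the amnion, the extraembryonic membrane, with 78.0 CPM (62.3 to 96.4) at HH14 and 139 CPM (111 to 172) at HH18. In the gut class it stood at 39.4 CPM at HH14. The later of the 2 ectoderm clusters, called the second here, had 34.8 and 41.4 CPM at HH14 and HH18. The splanchnic lateral plate had 10.2 CPM (6.17 to 16.0) at HH14 and 47.1 (18.9 to 97.0) at HH18. These values rest on 19 and 7 UMIs, too few for a ratio. In undifferentiated cluster 7, present at HH10 and HH14, DISP1 was at 7.28 and then 21.6 CPM, 2.97-fold higher (1.27 to 6.44), on 24 and 10 UMIs. With cells thinned to 2800 UMIs it was detected in 8 of 388 and 6 of 59 cluster 7 cells, but at 4200 UMIs in 12 of 316 and 0 of 44 (up to 6.82%), so the order of the stages turned with the depth chosen.

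PTCH1, the receptor and a target of its own pathway, was lower in each later library. Its mesenchyme sums were 128, 84 and 28 UMIs, or 25.4 (21.2 to 30.2), 15.6 (12.5 to 19.3) and 7.89 CPM (5.24 to 11.4). The level at HH10 was 3.22-fold that at HH18 (2.13 to 5.04), which made it the 1 of 7 measured members at least 2-fold lower at HH18, against 4.17% of 8953 measured genes. From HH10 to HH14 the ratio was 1.63 (1.23 to 2.17) and from HH14 to HH18 1.98 (1.28 to 3.15), both under 2-fold. With splanchnic and extraembryonic classes left out the HH14 to HH10 log2 ratio was -1.53 in place of -0.70, and with cells thinned to 2800 UMIs the HH18 to HH14 log2 ratio was -0.10 in place of -0.99.

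Within classes present in consecutive libraries, PTCH1 could be measured in 3 pairs. Undifferentiated cluster 7 had 18.8 CPM at HH10 and 19.4 at HH14, a ratio of 1.03 (0.45 to 2.09). The splanchnic lateral plate had 28.6 CPM at HH14 and 26.9 at HH18, a ratio of 0.94 (0.25 to 2.56), the last value resting on 4 UMIs. Both intervals take in the pooled mesenchyme ratios for the same stages, 0.61 and 0.51, so a smaller difference within these classes was not shown. Undifferentiated cluster 1 had 54 UMIs at 37.3 CPM at HH10 and 1 UMI at 5.02 CPM in the 24 cells left at HH14. That level was 7.43-fold lower (1.28 to 299). Markers of splanchnic mesoderm also had their lowest sum at HH18: 6 of 6 were detected in each library, at 81.0, 134 and 17.5 CPM in the mesenchyme. Their part in the lower PTCH1 sum was not tested.

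Among HH14 classes, PTCH1 was highest in the splanchnic lateral plate, at 28.6 CPM (21.4 to 37.4), followed by the intermediate mesoderm at 25.2 and the somitic mesoderm at 25.1, whose intervals overlap it throughout. The somatopleure, the body-wall layer that faces the splanchnic layer across the coelom, had 8.04 CPM (3.85 to 14.8). No PTCH1 UMI was counted in the 21 limb bud cells or the 24 flank cells at HH14. The limits of 3 counts were 9.45 CPM in the limb bud and 17.3 in the flank. Both lie above the somatopleure level, so neither class was shown to be lower than the somatopleure. At HH18 the 180 limb bud cells had 12 PTCH1 UMIs at 4.89 CPM (2.53 to 8.55). The splanchnic lateral plate stood at 26.9 CPM (7.33 to 68.9) on 4 UMIs and the second ectoderm cluster at 13.5 (7.17 to 23.0) on 13. Both intervals overlap that of the limb bud, and both pairs missed the 30 UMIs required. In the HH10 library undifferentiated cluster 1 was highest at 37.3 CPM (28.1 to 48.7), next to the primitive streak class at 29.997 and the primitive mesoderm at 19.2. Blood vessel cells gave 11.7 CPM (4.71 to 24.1) at HH10 and 8.43 on 2 UMIs at HH14, so PTCH1 levels near 10 CPM are not set apart from that class.

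**Figure D3:**
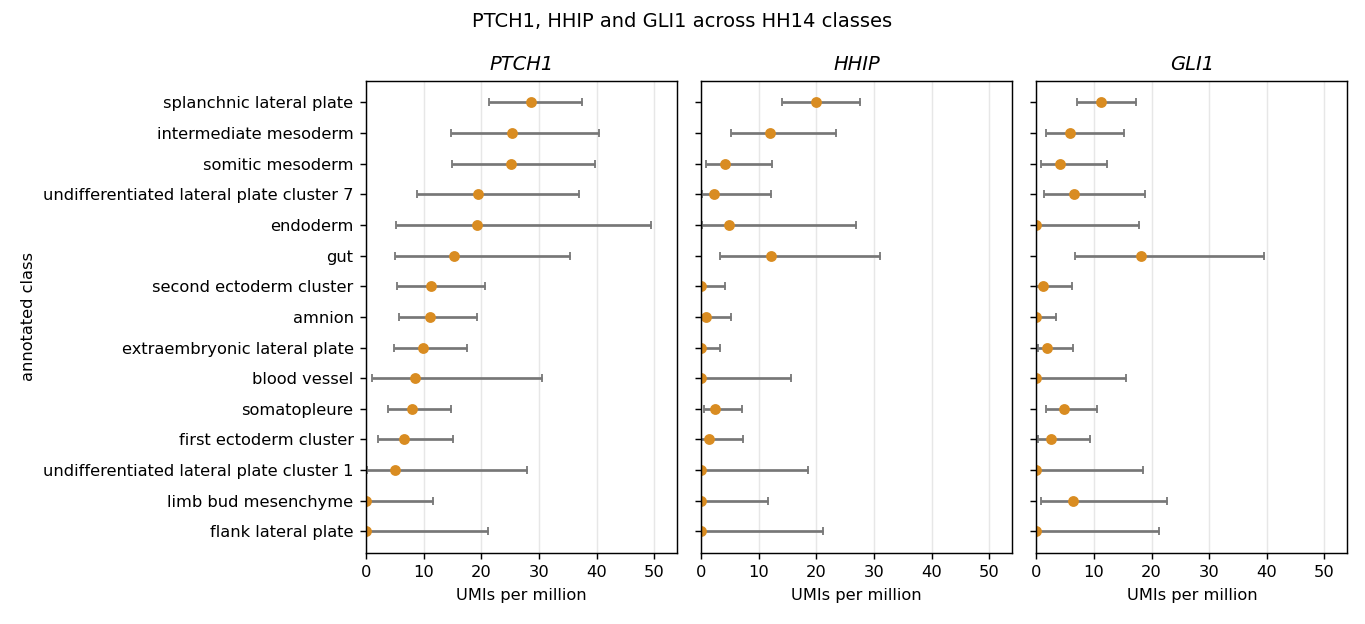
PTCH1, HHIP and GLI1 levels (x axes, CPM) in the HH14 classes of 20 cells or more (y axis, ordered by PTCH1). Points are class sums and bars exact 95% counting intervals. Splanchnic lateral plate lies at 28.6, 19.9 and 11.3 for the 3 genes and somatopleure at 8.04, 2.41 and 4.82.

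Splanchnic lateral plate and somatopleure could be compared within the HH14 library, without a change of stage. PTCH1 was 3.56-fold higher in the splanchnic layer (1.79 to 7.84) and HHIP 8.27-fold (2.62 to 41.9), 2 of 7 measured genes; 9.64% of 6846 measured genes were at least 2-fold higher there. The median log2 ratio was 0.14 over the 7 members and 0.11 over all measured genes. GLI1 pointed the same way with 21 against 6 UMIs, 2.35-fold (0.92 to 7.11), but missed the 30 UMIs required. The co-receptors and GLI factors were nearly level: the ratio was 1.02 for BOC, 0.75 for GAS1, 1.11 for GLI2 and 1.10 for GLI3. DISP1 was at 0.58 (0.30 to 1.12). Of other genes of gut-forming mesoderm, FOXF1 was 16.1-fold, NKX3-2 21.6-fold and BMP2 3.58-fold higher in the splanchnic class. As the classes were drawn from the same values, these ratios lend no weight to those of PTCH1 and HHIP. Endoderm markers were also higher in the splanchnic class, at 386 against 106 CPM in sum, with SOX17 at 0 in both. TTR, which encodes a secreted carrier protein of yolk sac and gut endoderm, gave much of that endoderm sum, and its part in the PTCH1 and HHIP values was not tested.

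BOC, a co-receptor of the immunoglobulin and fibronectin family, was higher in each later library. Its mesenchyme sums were 66, 236 and 280 UMIs, or 13.1 (10.1 to 16.7), 43.9 (38.5 to 49.9) and 78.9 CPM (70.0 to 88.7), with no overlap between intervals. HH18 was 6.02-fold above HH10 (4.59 to 7.998). BOC, GAS1 and DISP1 were the 3 of 7 measured genes at least 2-fold higher at HH18 than at HH10, against 8.18% of all measured genes. The median log2 ratio of the 7 was 0.75, beside 0.14 over all genes.

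By class, BOC showed another order. At HH14 it was highest in the flank lateral plate, with 178 CPM (121 to 253), and in the limb bud mesenchyme, with 129 CPM (92.7 to 175), against 29.7 CPM in the somatopleure and 30.2 in the splanchnic layer. At HH18 the flank stood at 134 CPM (103 to 171) and the limb bud at 75.5 (64.97 to 87.1). Within the limb bud class BOC was thus 1.71-fold lower at HH18 than at HH14 (1.19 to 2.41), while the mesenchyme as a whole was 1.80-fold higher (1.51 to 2.15). All 6 class pairs in which BOC could be measured at both of 2 stages stayed under 2-fold, from 0.58 in the limb bud to 1.56 in the somatopleure, beside a mesenchyme in which limb bud and flank cells numbered 21 and 24 of 598 at HH14 and 180 and 40 of 325 at HH18. The part of that mix in the pooled ratio was not tested.

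Both ectoderm clusters held less BOC than the limb bud and flank classes at HH14 and HH18. The second ectoderm cluster had 8.99 CPM at HH14 and 8.28 at HH18. The first had 1.30 and 20.5 CPM (8.83 to 40.3), the last on 8 UMIs. All 6 apical ridge markers were detected in the second cluster at HH18, at 970 CPM in sum. They were also all detected in the first cluster, at 458 CPM, and in the pooled mesenchyme, at 145, so detection alone does not mark a ridge. Limb bud mesenchyme over the second ectoderm cluster at HH18 gave 9.11-fold for BOC (4.53 to 21.4). BOC was the 1 member at least 2-fold higher among 5 measured, against 7.37% of all genes. DISP1 and GLI2 were higher on the ectodermal side, by 2.90-fold (1.80 to 4.70) and 2.05-fold (1.38 to 3.02), against 6.49%. With cells thinned to 2800 UMIs, BOC was detected in 14.9% of limb bud cells (9.94 to 21.01) and 34.2% of flank cells (19.6 to 51.4) at HH18, and in 46.7% and 67.5% before thinning at median depths of 10314 and 8924 UMIs. Blood vessel cells, which are not known for BOC, had it in 0 of 29 thinned cells at HH14, at a median depth of 3551 UMIs before thinning. Before thinning that class held BOC at 8.43 CPM (1.02 to 30.5) at HH14 and 11.5 (1.39 to 41.4) at HH18, on 2 UMIs each, so the BOC level of the second ectoderm cluster is not set apart from that of blood vessel cells.

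GAS1, a co-receptor anchored to the membrane by a lipid, had 72, 224 and 166 mesenchyme UMIs, or 14.3 (11.2 to 18.01), 41.7 (36.4 to 47.5) and 46.8 CPM (39.9 to 54.5). HH14 and HH18 overlapped and HH10 lay below both. Within the undifferentiated clusters GAS1 was not higher by 2-fold at HH14. Its HH14 to HH10 ratio was 1.08 in cluster 1, on 27 UMIs at HH10 and 4 at HH14. In cluster 7 the ratio was 0.55, on 39 and 3 UMIs. The part of the class mix in the pooled difference was not tested. The highest embryonic class for GAS1 was the flank lateral plate, with 115 CPM (70.3 to 178) at HH14 and 102 (75.8 to 135) at HH18. The limb bud mesenchyme had 31.5 and 36.3 CPM. At HH18 GAS1 was 2.82-fold higher in the flank than in the limb bud (1.95 to 4.04) and DISP1 2.20-fold (1.11 to 4.13), 2 of 5 measured genes, against 4.52% of 7043 genes at least 2-fold lower in the limb bud. BOC was 1.77-fold higher in the flank (1.31 to 2.37). Against the somatopleure of the same library none of 5 measured genes differed by 2-fold, with DISP1 closest at 1.99-fold higher in the somatopleure (0.91 to 3.9995), while 15.8% of all measured genes did.

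GAS1 and GLI2 were also ectodermal. In the first ectoderm cluster GAS1 had 31.3, 42.8 and 20.5 CPM at the 3 stages, the last on 8 UMIs, and in the second ectoderm cluster 47.2 and 34.2 CPM at HH14 and HH18. The HH10 value rested on 24 UMIs in 16 of 81 cells, and on 16 UMIs without the top cell. With cells thinned to 4200 UMIs, 1 of 60 had GAS1 there. The class of low count cells had 3.54, 32.3 and 27.6 CPM in stage order, so the HH14 and HH18 ectoderm levels are not set apart from it. The endoderm had 0 GAS1 UMIs at HH10 and 1 at HH14. The somitic mesoderm at HH14 had 18.1 CPM, 2.30-fold below the mesenchyme (1.32 to 4.38), and GAS1 was the 1 member of 8 measured that was at least 2-fold lower there, against 7.06% of all genes. CDON, the relative of BOC that also acts as a co-receptor and was not among the 9, went the other way in that comparison, 4.94-fold higher in the somitic class (3.62 to 6.69).

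**Figure D4:**
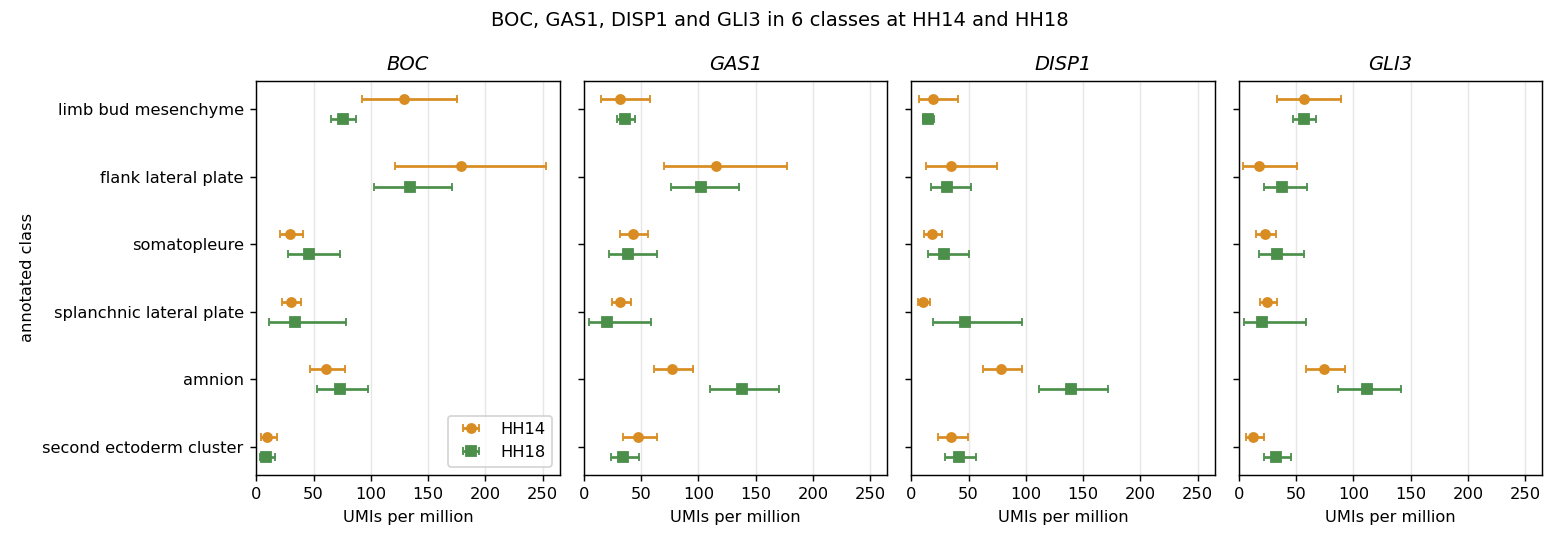
BOC, GAS1, DISP1 and GLI3 levels (x axes, CPM) in 6 classes (y axis) at HH14 (circles) and HH18 (squares), with exact 95% counting intervals. BOC is highest in flank at 178 and 134 and lowest in the second ectoderm cluster at 8.99 and 8.28, and DISP1 and GLI3 are highest in the amnion at 139 and 112 at HH18.

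GLI3, the chief repressor form of the pathway in the limb bud, had 152, 158 and 180 mesenchyme UMIs, or 30.2 (25.6 to 35.4), 29.4 (25.0 to 34.3) and 50.7 CPM (43.6 to 58.7). The earlier libraries were level and HH18 stood 1.73-fold above HH14 (1.39 to 2.15). In the limb bud class itself it was 56.7 CPM at HH14 and 56.7 at HH18, a ratio of 1.00 (0.61 to 1.74). The somatopleure had 22.5 and 33.5 CPM and the flank 17.3 and 37.6 CPM, the HH14 flank value on 3 UMIs. At HH14 the intermediate mesoderm with 51.9 CPM (36.2 to 72.2) and the somitic mesoderm with 48.9 (34.0 to 68.0) were close to the limb bud. In the second ectoderm cluster GLI3 was at 12.4 CPM at HH14 and 32.1 at HH18, 2.60-fold higher (1.27 to 5.73).

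GLI2, the main activator, differed by less than 2-fold between any 2 stages, with 112, 184 and 103 mesenchyme UMIs, or 22.2 (18.3 to 26.8), 34.2 (29.5 to 39.5) and 29.0 CPM (23.7 to 35.2). Ectoderm carried it too, at 19.5, 40.2 and 43.5 CPM in the first cluster and 33.7 and 51.8 CPM in the second. At HH18 the second cluster (38.4 to 68.3) lay above the mesenchyme interval. The other ectoderm intervals overlapped those of the mesenchyme at the same stage. The first cluster was 2.06-fold higher at HH14 than at HH10 (1.08 to 4.10). In undifferentiated cluster 7 GLI2 was at 15.5 and then 34.6 CPM, 2.23-fold higher (1.19 to 3.98). At HH10, cluster 1 was 2.46-fold above cluster 7 for GLI2 (1.65 to 3.67) and 1.99-fold for PTCH1 (1.35 to 2.91), a pair of clusters compared after the values had been seen. GLI2 was the 1 of 6 measured members past 2-fold, and 8.80% of all genes were at least 2-fold higher in cluster 1.

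GLI1, the factor that is transcribed in response to the signal, was rare, with 20, 34 and 11 mesenchyme UMIs at 3.97 (2.43 to 6.13), 6.33 (4.38 to 8.84) and 3.101 CPM (1.55 to 5.55). The 3 intervals overlap. At HH14 the gut class had 18.2 CPM (6.68 to 39.6) on 6 UMIs and the splanchnic layer 11.3 (7.01 to 17.3) on 21 UMIs. The amnion had 0 in 124 cells and the endoderm 0 in 31. No class pair across stages held enough GLI1 for a ratio. The pooled HH14 to HH10 order also hung on the cells taken: it was 0.67 on the log2 scale, and -1.55 over cells whose first-level class was lateral plate or limb.

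HHIP, the ligand-binding antagonist, was counted mostly at HH14. The libraries held 4, 60 and 9 HHIP UMIs, and the mesenchyme 1, 41 and 3, at 0.20, 7.63 (5.47 to 10.3) and 0.85 CPM. The splanchnic lateral plate gave 37 of the 41, from 27 of its 215 cells and at most 6 in 1 cell, at 19.9 CPM (14.04 to 27.5). The gut class followed with 12.1 CPM on 4 UMIs and the intermediate mesoderm with 11.9 on 8 UMIs. No HHIP UMI was counted in limb bud, flank or extraembryonic lateral plate at HH14. The limits of 3 counts were 9.45, 17.3 and 2.67 CPM in these classes. The flank interval reached 21.2 CPM, so the flank was not set apart from the splanchnic level. At HH10 the splanchnic class had 18 cells and 0 HHIP UMIs. The limit of 3 counts there, 22.9 CPM, lies above the HH14 splanchnic level, so a rise within that class was not shown. HHIP was 9.02-fold lower at HH18 than at HH14 in the mesenchyme (2.88 to 45.5), and GLI1 2.04-fold lower (1.01 to 4.46), 2 of 8 measured genes, against 2.99% of 9064 genes. None of the 8 was 2-fold higher, against 3.71%, and their median log2 ratio was -0.11 beside 0.09 over all genes. With splanchnic and extraembryonic classes left out, HHIP had 5 UMIs and GLI1 22 over both libraries, too few to be measured, so their change could not be read without those classes. The other 6 members stayed under 2-fold there. Within the 21 splanchnic cells of the HH18 library HHIP was at 13.4 CPM on 2 UMIs, a ratio of 0.67 to HH14 (0.08 to 2.61). The mesenchyme held 215 splanchnic cells at HH14 and 21 at HH18.

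**Figure D5:**
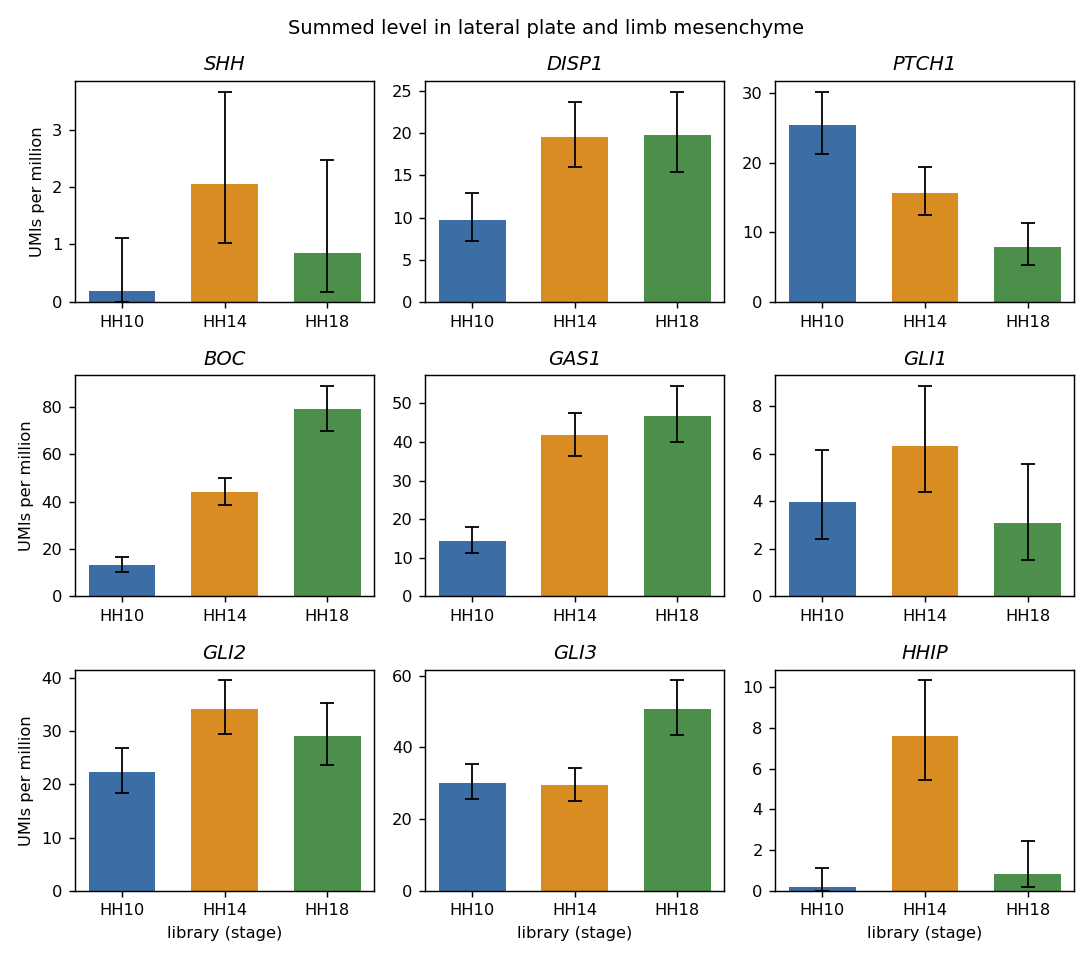
Summed level of each gene in the lateral plate and limb mesenchyme (y axes, CPM, each panel with its own scale from 0) in the HH10, HH14 and HH18 libraries (x axes). Bars are sums over 599, 598 and 325 cells and lines exact 95% counting intervals. BOC is at 13.1 at HH10 and 78.9 at HH18, PTCH1 at 25.4 and 7.89, and HHIP is at 7.63 at HH14 with 0.20 and 0.85 on either side.

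From HH10 to HH14, HHIP, BOC, GAS1 and DISP1 were the 4 of 8 measured genes at least 2-fold higher in the mesenchyme, and none was 2-fold lower, against 4.34% of 9166 genes higher and 2.57% lower. The median log2 ratio was 0.84 over the 8 members and 0.05 over all genes. Over class pairs fewer members passed. Of 45 measured pairs of a gene and a class present at 2 stages, 37 stayed under 2-fold, 5 were higher at the later stage and 3 lower, against 4.09% and 4.46% of all such pairs of any gene and a class. The 5 were GLI2 in 3 pairs, DISP1 in undifferentiated cluster 7 and GLI3 in the second ectoderm cluster. The GLI2 pairs were undifferentiated cluster 7 and the first ectoderm cluster at HH14 and at HH18 over HH10. Both of these ectoderm ratios rest on the same HH10 sum of 15 UMIs, so the 5 are not independent. The 3 were SHH in the endoderm, PTCH1 in undifferentiated cluster 1 and GAS1 in the first ectoderm cluster between HH14 and HH18, at 2.09-fold (0.95 to 5.25).

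The amnion combined high DISP1, GAS1 and GLI3 with next to no GLI1, HHIP or SHH. GAS1 was at 77.1 CPM (61.5 to 95.4) at HH14 and 138 (110 to 170) at HH18, 1.79-fold higher (1.31 to 2.45). DISP1 was 1.79-fold higher at HH18 (1.31 to 2.44) and GLI3, at 74.3 and 112 CPM, 1.50-fold (1.08 to 2.10). PTCH1 was at 11.01 and 9.72 CPM, GLI1 at 0 UMIs in both libraries, HHIP at 1 and 0 UMIs and SHH at 0. The comparison with the mesenchyme of the same library was chosen after these values had been seen. At HH14 DISP1 was 3.99-fold (2.96 to 5.36) and GLI3 2.53-fold (1.91 to 3.33) higher in the amnion, against 5.31% of genes. HHIP was 8.31-fold lower (1.41 to 336) and GLI1 had 0 UMIs, against 4.69% of genes lower. At 3 counts GLI1 would be 2.30-fold lower, and its interval began at 1.77-fold lower. At HH18 DISP1 was 7.06-fold (5.09 to 9.82), GAS1 2.94-fold (2.24 to 3.84) and GLI3 2.20-fold (1.64 to 2.92) higher, against 6.93% of genes. After thinning, DISP1 was detected in 17.8% of amnion cells (11.04 to 26.3) at HH14 and 41.2% (27.6 to 55.8) at HH18. The combination was not particular to the amnion. The extraembryonic lateral plate at HH14 had GAS1 at 66.8, GLI3 at 38.3 and DISP1 at 33.9 CPM. It held 2 UMIs of GLI1, 0 of HHIP and 1 of SHH. Limb bud, flank and second ectoderm cluster also had 0 UMIs of SHH and HHIP at HH14, though in the flank the limit of 3 counts was 17.3 CPM.

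Genes of a wider Hedgehog list were read in the same mesenchyme sums. Of 69 listed genes other than the 9, 58 were present and 38 were measured in each pair of stages. Between HH10 and HH14, 6 were at least 2-fold higher and 4 lower, between HH14 and HH18 7 and 4, and between HH10 and HH18 8 and 6. Of all measured genes, 4.34% were higher and 2.57% lower in the first pair, 3.71% and 2.99% in the second, and 8.18% and 4.17% in the third. Most of these were genes of limb and lateral plate patterning. TBX2, IRX3 and IRX5 were higher in each later library of every pair, and FOXF1 and BMP2 were lower at HH18 than at either earlier stage. These are sums over a mesenchyme whose classes changed in share, with 215 splanchnic cells at HH14 and 21 at HH18. FOXF1 and BMP2 were also higher in the splanchnic class than in the somatopleure at HH14. The part of the class mix in the ratios of the list, CDON included, was not tested. The medians of the list were 0.21, 0.26 and 0.41 on the log2 scale, beside 0.05, 0.09 and 0.14 over all genes. SMO, the transducer, had 45.9, 45.8 and 50.5 CPM, and SUFU, which holds GLI proteins in the cytoplasm, 25.6, 15.4 and 23.7 CPM. CDON had 14.3, 20.6 and 48.2 CPM and was 2.33-fold higher at HH18 than at HH14 (1.83 to 2.99). Of 17 to 18 measured genes of the cilium and signal transfer, ADCY6 was the 1 to pass 2-fold, higher at HH14 and HH18 than at HH10. The other ligands gave little: IHH had 0 UMIs in the mesenchyme and 2 and 3 in the endoderm at HH10 and HH14.

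Likeness of pattern was measured as Pearson's r of log2(CPM + 10) over the 33 class-by-library sums of 20 cells or more, across 8210 genes. These sums share libraries, depth and cells of related classes, so r is a description. SHH went most closely with APOH, a plasma protein gene of the endoderm, at 0.98, and with RELN at 0.91. These values rest on few sums. SHH was above 10 CPM only in the endoderm, at 513 at HH10 and 174 at HH14, the HH14 intermediate mesoderm, at 68.3, and the HH10 primitive streak, at 17.1. BOC went with SOX6 at 0.87 and FOXP2 at 0.87, GLI2 with the WNT receptor gene ROR1 at 0.90, GAS1 with NEDD9 at 0.82, and DISP1 with ALDH1L2 at 0.80. PTCH1 and GLI1 had weaker best partners, FGFRL1 at 0.73 and BAALC at 0.61. Among the 9, DISP1 and GAS1 were most alike at 0.75, followed by DISP1 and GLI2 at 0.68 and BOC and GAS1 at 0.66. PTCH1 and GLI1 reached 0.33. The lowest values were -0.42 for SHH and GAS1, -0.33 for SHH and GLI2 and -0.32 for PTCH1 and BOC. HHIP had too few UMIs for this measure, 73 over all libraries against the 100 required. GLI1 had 103, so counting error limits its r values, that with PTCH1 included.

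In single cells thinned to 2800 UMIs, the count of cells with both genes of a pair was set beside the count that the separate frequencies give. BOC and GAS1 were together in 7 of 544 mesenchyme cells at HH14, where 5.71 follow from the separate shares, and PTCH1 and GAS1 in 0, where 2.92 do. In the amnion, DISP1 and GLI3 were together in 10 of 107 cells at HH14 against 4.08, and in 4 of 51 at HH18 against 6.18, so the excess at HH14 had no counterpart at HH18. At 2800 UMIs a gene of 30 CPM yields a UMI in few cells, and such counts limit what can be read on co-expression.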

How the data were processed

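Single-cell libraries from the forelimb field of chicken embryos, 1 per stage at HH10, HH14 and HH18, were analysed. Cell Ranger 4.0.0 and the chicken build GRCg6a were named in the submitters' processing notes; the filters on cells and genes were not given in the sources used here. The authors deposited raw UMI counts per gene and cell, which were not normalized. The percent of UMIs in mitochondrial and in ribosomal protein genes was computed by the authors for each cell, per the file headers, and the highest mitochondrial value in a library was 9.97%. The authors' finer class was used, or the first-level class for the 980 cells that lacked it, and 9 annotation columns were not used.

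Counts were summed by class and library with numpy 2.4.6 and scipy 1.17.1. Levels carry exact Poisson intervals, ratios exact conditional binomial intervals and shares Clopper-Pearson intervals, all at 95% and for counting error only, on the assumption that UMIs are independent. For genes at 0, the limit set by 3 counts over the group is printed. Cells were thinned to 2800 UMIs for shares. The computation was checked on simulated data. Scrublet in scanpy 1.11.5, with an expected rate of 2%, called 0, 3 and 1 doublets in stage order, and these cells were kept. With 1 library per stage nothing was tested.

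All 9 genes were named in each comparison; of the other pathway genes, those past 2-fold with the largest ratios, up to 6 per comparison, and SMO, SUFU, CDON, IHH and HAND2 were eligible; some listed genes are not reported here. The members, gene lists, marker lists and comparisons were chosen with earlier results of these data known. Chosen after values were seen were the amnion comparisons, cluster 1 against cluster 7, and the alternative that leaves out the top cell of each gene. The other alternatives concerned scaling, totals, averaging over cells, depth, the UMI minimum, the fold and the choice of cells. No sequence is shown, as no sequence table or genome of this build was used here.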

Additional observations from a re-analysis of the deposited data

Results flagged for a closer look

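Signals of 3 members lay in classes of under 20 cells, which the comparisons did not use, above the pooled level of the larger classes of the same library, though not above each of them. SHH stood at 592 CPM (375 to 888) on 23 UMIs in 5 HH10 cells with only a first-level primitive mesoderm class, against 10.3 CPM in the larger classes together and 513 CPM in the HH10 endoderm, which lies inside that interval. A single cell gave 21 of the 23 UMIs, and it also held 4 UMIs of SOX17, 5 of EPCAM and 2 of FOXA2, which are endoderm markers. GAS1 stood at 124 CPM (59.6 to 229) on 10 UMIs in 9 HH18 cells of the extraembryonic lateral plate, against 49.3 CPM. GLI3 stood at 102 CPM (64.7 to 153) on 23 UMIs in 18 somitic cells of the HH18 library, against 48.1 CPM. The amnion of that library was higher for both genes, with GAS1 at 138 and GLI3 at 112 CPM. Outliers within a group could not be sought, since each stage had 1 library.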

How the results depend on the processing

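The number of members past 2-fold was 4, 2 and 4 in the mesenchyme for HH14 over HH10, HH18 over HH14 and HH18 over HH10, 8 within classes present at 2 stages and 20 over 7 comparisons between classes of a library, the amnion and cluster 1 comparisons not included. For HH14 over HH10 it was 2 with cells thinned to 4200 UMIs, 1 at 4-fold and 2 by first-level class. For HH18 over HH14 it was 0 with cells thinned to 2800 UMIs, 1 at 4200 UMIs, 0 with a minimum of 100 UMIs, 1 at 4-fold, 0 without splanchnic and extraembryonic classes, 0 by first-level class and 1 without cells in S or G2/M phase. For HH18 over HH10 it was 2 at 2800 UMIs and 1 at 4-fold. Within classes it was 2 at 2800 UMIs, 1 at 4200, 17 with a minimum of 10, 1 with a minimum of 100, 61 with none and 1 at 4-fold. Between classes it was 12 at 2800 UMIs, 13 at 4200, 12 with a minimum of 100, 36 with no minimum and 10 at 4-fold. Thinning and higher minima leave fewer genes measured. For HH18 over HH14, GLI1 and HHIP also had fewer than 30 UMIs under each of the 3 choices of cells named; for the other changes with the choice of cells the cause was not tested. The other 42 of 65 recomputed counts were within 1.5 times. Of 248 recomputed log2 ratios between stages, over 23 pairs of a gene and 2 stages, 222 lay inside the counting interval, 26 outside, and 0 of those past 2-fold reversed. Of 54 recomputed shares of mesenchyme cells, 32 left the interval, as depth sets such shares. No paired analysis was possible because each stage had 1 library, and leaving out a replicate was not possible for the same reason. A planned motif search in promoters was not run. Levels on under 10 UMIs are limited by counting error.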
